A study of Mus musculus with 12 samples.

Results

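The genes of the machinery with which osteoclasts secrete acid were followed in bulk RNA-seq data of cultured mouse osteoclasts. They comprised 32 genes chosen by symbol for their role, with earlier results of these data known, of the 47643 genes in the count table. They encode 9 subunits of the membrane sector (V0) and 9 of the cytosolic sector (V1) of the vacuolar proton pump (V-ATPase), its 2 accessory proteins, 4 chloride exchangers with the partner protein Ostm1, 3 anion or sodium proton exchangers, carbonic anhydrase II and 3 vesicle factors. All 32 had counts above the filter on low values, which kept 13681 genes of the table. The 12 libraries fell into 3 groups of 4 biological replicates, all cultured from BALB/c WT bone marrow derived monocytes, here BMMs, in medium with M-CSF and RANKL and harvested on day 3. OCsCtr received no stimulus, OCsEo received sorted eosinophils (1 BMM to 2 eosinophils), and OCsEoS received eosinophil supernatant (1 in 2 dilution). Either stimulus was present from day 0 for 48 h, after which the cells were washed and given new medium. Whether eosinophils remained in the OCsEo cultures was not tested. The eosinophils came from IL-5tg/4get mice, in which transgenic IL-5 raises eosinophil numbers, so that their donors differed from the BMM donors in genotype. The sources used here do not say whether libraries with the same replicate number share an animal, and the p-values therefore measure only the spread between these cultures.

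Bone resorbing osteoclasts seal off the space beneath them and acidify it across a folded membrane, the ruffled border, which forms when lysosome related vesicles fuse with the plasma membrane. Carbonic anhydrase II supplies protons inside the cell, the V-ATPase pumps them out, the exchanger Clcn7 carries the chloride that balances the charge, and Slc4a2 at the opposite side of the cell removes the bicarbonate left behind. Inherited loss of Tcirg1, Clcn7, Ostm1, Snx10, Plekhm1 or carbonic anhydrase II is known to cause osteopetrosis, a disease of dense bone. RNA from cells in a dish gives the level of the transcripts and does not show whether a ruffled border had formed.

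The deposited values were raw counts per gene, aligned by the authors to GRCm38/mm10, with 27837530 to 40327869 counts per library. A count of 3 corresponded to 0.0744 to 0.108 CPM, that is counts scaled to library size. CPM below are also scaled by TMM, and levels of different genes are compared only per kb of the gene length given in the table. Changes are log2 fold changes from edgeR's quasi-likelihood test of all 12 libraries, with standard errors (SE) and Benjamini-Hochberg adjusted p-values over the 13681 genes tested. A gene counted as downregulated or upregulated where its adjusted p was under 0.05 and its log2 fold change exceeded 0.5 in size, and "fell" or "rose" is used for an adjusted p under 0.05 whatever the size. Osteoclast identity was checked on Ctsk, the collagen-degrading protease of osteoclasts, which lay at 10510.3 to 12787 CPM in OCsCtr, 6878 to 9061 CPM in OCsEo and 6155 to 8499.96 CPM in OCsEoS. All 18 pairs of replicates differed by more than sampling noise (chi-square per degree of freedom 10.1 to 36.1), so that each library was counted as 1 replicate.

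Most of the acid secretion genes were lower after either stimulus, by modest amounts. In OCsEo, 9 of the 32 were downregulated and 1 was upregulated, against a background of 2.61% of all genes tested called lower and 3.27% called higher. At an adjusted p under 0.05 alone, 20 fell and 1 rose (background 8.35% and 9.06%), and 11 passed in neither direction. In OCsEoS, 8 were downregulated and 0 upregulated, against 4.11% and 3.63% of all genes, while 21 fell and 1 rose at an adjusted p under 0.05 alone (background 11.2% and 11.8%). The count of 0 upregulated members in OCsEoS from edgeR was the same with DESeq2, and 1 member was higher at an unadjusted p under 0.05. The median log2 fold change of the 32 genes was -0.30 in OCsEo and -0.30 in OCsEoS, beside -0.01 and -0.01 over all genes tested. Single members ranged from -0.68 to 0.58 in OCsEo and from -0.70 to 0.61 in OCsEoS, and 28 of the 32 were below 0 in each comparison (background 50.9% and 50.6%). Both comparisons use the same 4 OCsCtr libraries, so their calls are not independent of each other. As the members were chosen with earlier results of these data known, their counts beside the background shares describe them and give no separate support.

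The members called downregulated in both were Tcirg1, Atp6v0d2, Atp6v1a, Atp6v1d, Clcn7, Slc4a2, Snx10 and Plekhm1, 8 in number, and Slc9b2 was called in OCsEo only. For 18 members in OCsEo and 19 in OCsEoS, all stimulated libraries lay below all OCsCtr libraries (background 10.9% and 13.1%), and 17 members did so in both. For the counts over both comparisons, which share the OCsCtr libraries, no share over all genes was computed. The 9 members that passed the test in neither comparison were Atp6v0a2, Atp6v0b, Atp6v0c, Atp6v0e2, Atp6v1g1, Atp6v1g2, Clcn5, Clcn6 and Slc9a9. Leaving out each library in turn gave 6 to 9 downregulated members in OCsEo and 5 to 13 in OCsEoS, with 13 without OCsCtr replicate 1 and 5 without OCsEoS replicate 4. Several members had fold changes close to the cut-off. At an adjusted p under 0.05 alone the same fits gave 17 to 20 and 16 to 22 members that fell. Markers of osteoclasts were lower too. Of 10 such genes, among them the member Car2, 7 were downregulated in each comparison (background 2.61% and 4.11%). All 10 fell at an adjusted p under 0.05 (background 8.35% and 11.2%). The markers were chosen with earlier results of these data known, so these counts give no separate support. Their summed level was 27027 to 33045 CPM in OCsCtr, 17258 to 22226 CPM in OCsEo and 14184 to 21060 CPM in OCsEoS, with no marker at 0. Their part in the lower member levels was not tested. In these bulk cultures, fewer osteoclasts and less RNA per osteoclast cannot be told apart.

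**Figure D1:**
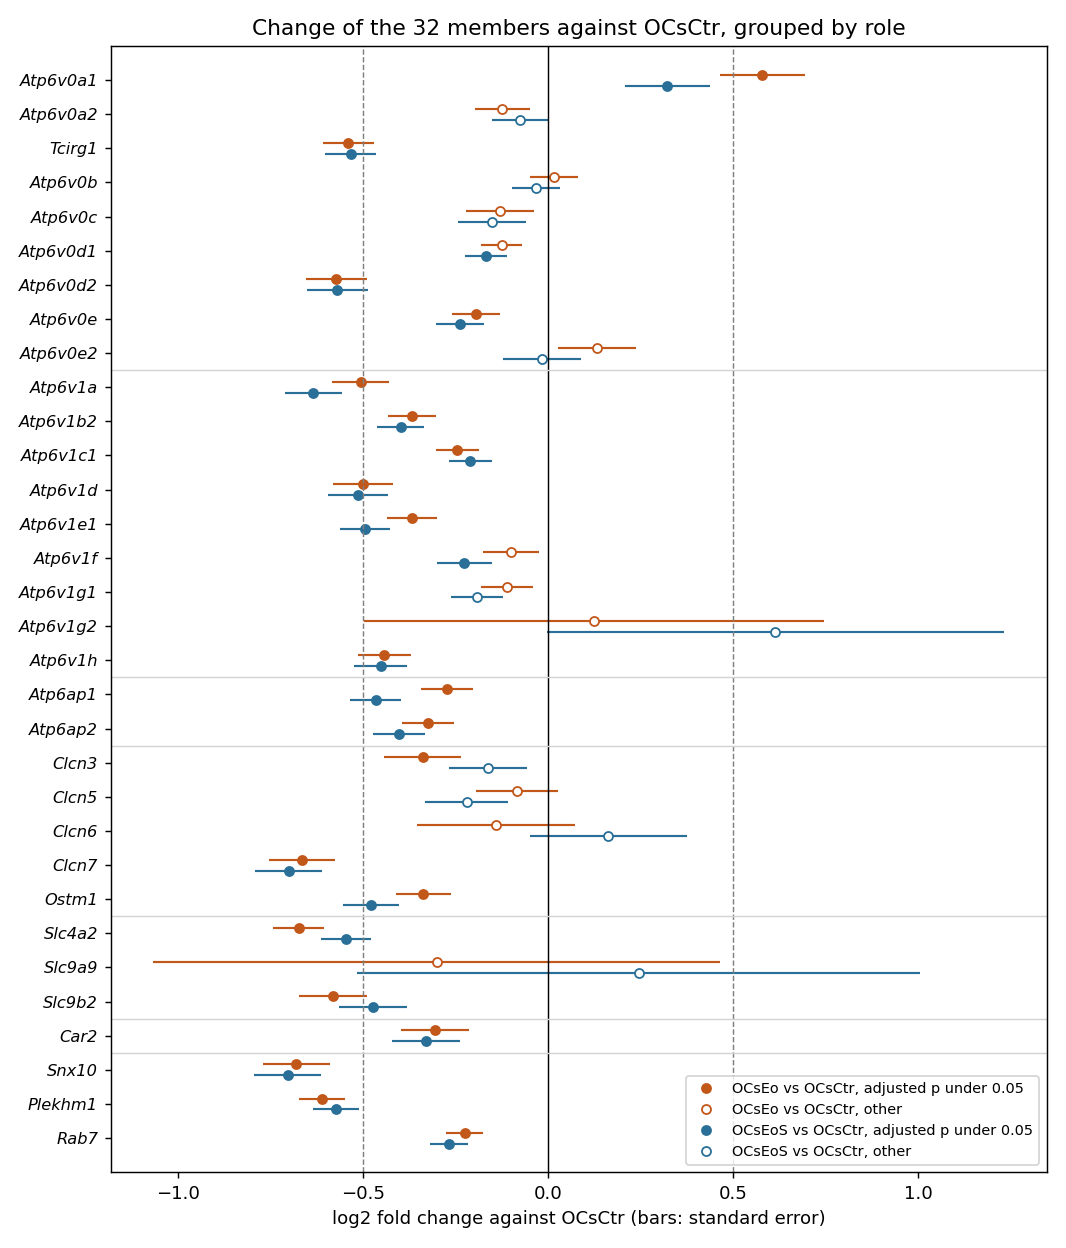
Log2 fold change of each of the 32 genes in OCsEo (orange) and OCsEoS (blue) against OCsCtr, with bars for the SE, grouped by role from V0 subunits at the top to vesicle factors at the bottom. Filled points have an adjusted p under 0.05 and dashed lines mark the cut-off at -0.5 and 0.5; 28 of 32 points lie left of 0 in each comparison, and Atp6v0a1 lies to the right in both.

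The members span a wide range of levels. Per kb, Atp6v1g1 (1008 ± 83.1 CPM per kb, mean and SD of 4 OCsCtr libraries), Atp6v1b2 (948 ± 78.7), Atp6v0b (681 ± 56.5) and Atp6v0d2 (616 ± 38.7) stood highest in OCsCtr. The OCsCtr ranges of Atp6v1g1 and Atp6v1b2 overlapped, as did those of Atp6v0b and Atp6v0d2, whereas every OCsCtr value of Atp6v1b2 lay above every value of Atp6v0b. Slc9a9 (0.177 ± 0.21 CPM per kb) and Atp6v1g2 (0.203 ± 0.109) were at the bottom, near the detection limit in some libraries, and Clcn6 (0.97 ± 0.0886), Clcn3 (1.99 ± 0.106) and Clcn5 (2.22 ± 0.283) came next. The 32 genes together took 2.33% to 2.65% of the counts of an OCsCtr library, 1.79% to 1.98% in OCsEo and 1.71% to 2.04% in OCsEoS. The groups of stimulated libraries did not overlap with OCsCtr in this share. For the 18 V0 and V1 subunits alone the share was 1.71% to 1.95% in OCsCtr, 1.35% to 1.5% in OCsEo and 1.29% to 1.52% in OCsEoS.

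**Figure D2:**
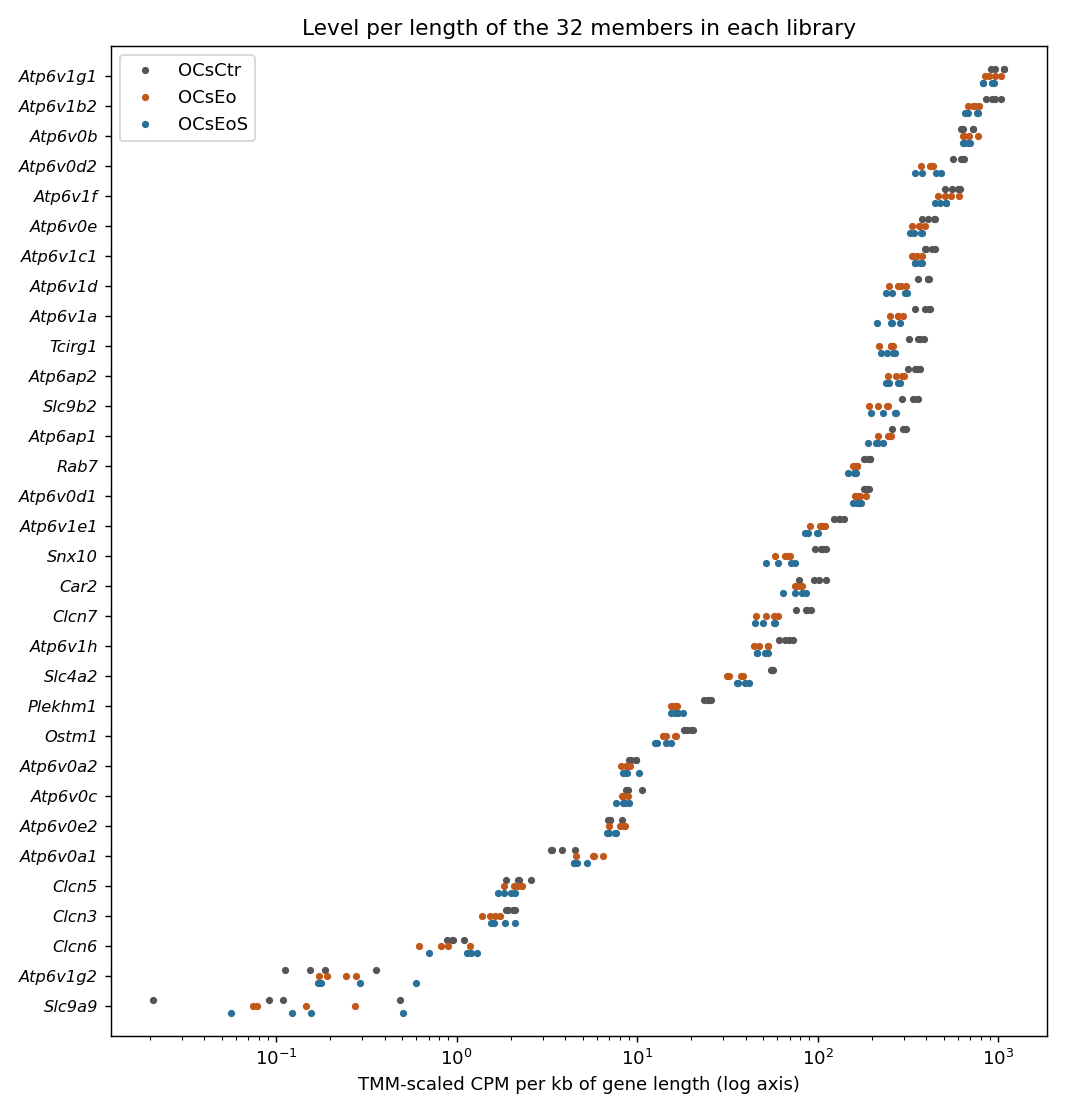
Level of the 32 genes in each of the 12 libraries, in TMM-scaled CPM per kb of gene length on a log axis, ordered by the mean of the OCsCtr libraries (grey). The genes run from about the level of Slc9a9 at the bottom to Atp6v1g1 at the top, and the OCsEo (orange) and OCsEoS (blue) points of Tcirg1, Atp6v0d2, Clcn7 and Slc4a2 lie left of all OCsCtr points.

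The promoters of the members were searched for E-boxes, short sites that the MITF and TFE family of transcription factors, regulators of lysosomal and osteoclast genes, are known to bind. RefSeq promoters (GRCm38.p6, 250 bases before to 50 after a start site) were at hand for 25 of the 32 members. On either strand, CACGTG was found in 6 of these 25 genes, namely Atp6v0b, Atp6v0d1, Atp6v0e, Atp6v1a, Clcn6 and Clcn7, and in 8.09% of 27025 genes (7.15% of 32851 promoters). It was found in 2 of the 8 matched members that were downregulated and in 4 of the other 17. CATGTG was found in 4 members (Atp6v0c, Clcn5, Clcn6 and Clcn7) and in 15.9% of genes, and the longer CLEAR element, which contains CACGTG, in 0 members and in 0.37% of genes. The 4 windows below, 150 bases before to 20 after the start, show CACGTG in capitals in 2 downregulated members, Clcn7 (chr17:25133241-25133410 on the plus strand) and Atp6v1a (chr16:44139240-44139409 on the minus strand), and in 2 members that did not pass the test in either comparison, Clcn6 (chr4:148038794-148038963 on the minus strand), a paralog of Clcn7, and Atp6v0b (chr4:117887310-117887479 on the minus strand), which was added after its values were seen. A match of letters is a description and does not show binding.
Clcn7: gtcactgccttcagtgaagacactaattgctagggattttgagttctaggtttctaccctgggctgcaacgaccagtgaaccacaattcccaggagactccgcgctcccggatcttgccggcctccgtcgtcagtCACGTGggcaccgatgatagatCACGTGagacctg
Atp6v1a: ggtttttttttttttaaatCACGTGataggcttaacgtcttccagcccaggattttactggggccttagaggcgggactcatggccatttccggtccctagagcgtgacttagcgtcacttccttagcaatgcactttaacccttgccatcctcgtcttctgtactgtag
Atp6v0b: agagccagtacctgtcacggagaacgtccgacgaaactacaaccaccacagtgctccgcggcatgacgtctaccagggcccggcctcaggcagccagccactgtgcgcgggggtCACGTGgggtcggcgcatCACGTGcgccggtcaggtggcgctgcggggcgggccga
Clcn6: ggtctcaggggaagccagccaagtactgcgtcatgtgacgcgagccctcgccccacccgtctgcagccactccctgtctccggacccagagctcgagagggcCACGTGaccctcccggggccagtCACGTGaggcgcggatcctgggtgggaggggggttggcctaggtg
In these windows, counted from the start site, CACGTG began at positions -15 and 8 in Clcn7, -131 in Atp6v1a, -36 and -18 in Atp6v0b, and -48 and -25 in Clcn6. Of the members with the site that are not shown, Atp6v0e fell in both comparisons and Atp6v0d1 fell in OCsEoS only, each short of the cut-off. Members with the site were thus found among the downregulated genes, among those that fell short of the cut-off and among those that did not pass the test.

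Of the 9 V0 genes, 2 were downregulated in each comparison and 1 was upregulated in OCsEo, and the medians of -0.13 and -0.15 were the nearest to 0 among the roles with more than 1 gene. Tcirg1, the a subunit isoform of the osteoclast pump (ENSMUSG00000001750, chr19:3896050-3907133), was downregulated after both stimuli. It measured 1443, 1653, 1742 and 1610.3 CPM in the OCsCtr libraries, 980.4, 1140.5, 1144 and 1170.1 CPM in the OCsEo libraries and 1083, 1205, 1164 and 1004 CPM in the OCsEoS libraries. All 8 stimulated libraries lay below the lowest OCsCtr library. The log2 fold change was -0.54 (SE 0.0692, adjusted p = 2.91e-05) in OCsEo and -0.53 (SE 0.0692, adjusted p = 2.48e-05) in OCsEoS, a change of -31.2% and -30.9%. The fold change came under the cut-off without OCsCtr replicate 3 (-0.498 in OCsEo and -0.49 in OCsEoS), without OCsEo replicate 1 (-0.49 in OCsEo) and without OCsEoS replicate 4 (-0.48 in OCsEoS), and in OCsEoS also with the trend of counts with gene length taken out (-0.498). The adjusted p stayed under 0.05 in each of these.

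Atp6v0d2, the d subunit isoform that osteoclasts express strongly and that also serves cell fusion (ENSMUSG00000028238, chr4:19876841-19922605), measured 1523, 1734, 1755 and 1684 CPM in the OCsCtr libraries, 1020.1, 1134, 1171 and 1178 CPM in the OCsEo libraries and 1029.7, 1309.8, 1229 and 941 CPM in the OCsEoS libraries. Again no stimulated library reached the OCsCtr range. It fell with a log2 fold change of -0.57 (SE 0.0825, adjusted p = 9.54e-05) in OCsEo and -0.57 (SE 0.0825, adjusted p = 6.60e-05) in OCsEoS, the latter -0.49 without OCsEoS replicate 4. Its paralog Atp6v0d1, the d subunit found in most tissues, measured 326 to 346 CPM in OCsCtr, 289 to 333 CPM in OCsEo and 281 to 311 CPM in OCsEoS, with a log2 fold change of -0.13 (adjusted p = 0.137) in OCsEo and -0.17 (adjusted p = 0.0352) in OCsEoS. The OCsEoS value passed the test in 14 of 21 other settings, and its adjusted p was 0.0601 to 0.138 without OCsCtr replicate 2, 3 or 4 or without OCsEoS replicate 1, 2 or 4.

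Atp6v0a1, an a subunit isoform used by other organelles and known best from neurons (ENSMUSG00000019302, chr11:101009452-101063719), was the member that rose. It measured 25.2, 22.1, 22 and 29.8 CPM in the OCsCtr libraries, 38.1, 37.4, 30.2 and 42.3 CPM in the OCsEo libraries and 34.5, 30.6, 29.5 and 29.4 CPM in the OCsEoS libraries. Every OCsEo library lay above every OCsCtr library, whereas 2 OCsEoS libraries lay below OCsCtr replicate 4. The log2 fold change was 0.58 (SE 0.115, adjusted p = 0.00153) in OCsEo and 0.32 (SE 0.115, adjusted p = 0.0493) in OCsEoS. The OCsEo call held in all 21 other settings, and the OCsEoS adjusted p stayed under 0.05 in 12 of 21. It was 0.0569 to 0.138 without OCsCtr replicate 1, 2 or 3, without OCsEo replicate 1 or 2, or without any 1 of the OCsEoS libraries. Per kb it remained a minor a subunit, at 3.78 ± 0.561 CPM per kb in OCsCtr and 5.64 ± 0.765 in OCsEo, beside 361 ± 28 and 248 ± 19.4 for Tcirg1. The third a isoform, Atp6v0a2, which acts in the Golgi and endosomes, measured 60.6 to 66.6 CPM in OCsCtr, 55.1 to 61.8 CPM in OCsEo and 56.5 to 69.2 CPM in OCsEoS and passed in neither comparison (log2 fold change -0.12, adjusted p = 0.3, and -0.08, adjusted p = 0.536).

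The remaining V0 genes encode the proton-carrying rotor ring and a small subunit. Atp6v0b, of the ring, measured 1276 to 1496 CPM in OCsCtr, 1307 to 1579 CPM in OCsEo and 1304 to 1429 CPM in OCsEoS, with log2 fold changes of 0.02 (95% interval -0.12 to 0.15) and -0.03 (95% interval -0.17 to 0.10). Atp6v0c, the main ring subunit, measured 29.5 to 36.3 CPM in OCsCtr, 28 to 30.3 CPM in OCsEo and 25.7 to 30.4 CPM in OCsEoS, with -0.13 (adjusted p = 0.377) and -0.15 (adjusted p = 0.268). Its level per kb was only 9.3 ± 0.947 CPM per kb in OCsCtr, and 10.8% of the 50-base stretches of its transcripts also occur in other annotated genes, mainly the copies Atp6v0c-ps2 and Atp6v0c-ps1, so that its reads may have been split or lost in counting. Atp6v0e, of the small e subunit, fell, from 1366 ± 101 CPM (mean and SD of 4 libraries) for OCsCtr to 1193 ± 81.2 for OCsEo and 1158 ± 82.1 for OCsEoS. Its log2 fold change was -0.20 (edgeR, adjusted p = 0.042) in OCsEo, where it passed in 11 of 21 other settings, and -0.24 (edgeR, adjusted p = 0.0107) in OCsEoS, where it passed in 19. The adjusted p was 0.0558 to 0.153 in OCsEo without OCsCtr replicate 2, 3 or 4, OCsEo replicate 1, 2 or 4, or OCsEoS replicate 1 or 3, and 0.0518 and 0.0559 in OCsEoS without OCsCtr replicate 3 and OCsEoS replicate 4. Atp6v0e2, the other e isoform, measured 16.4 to 19.6 CPM in OCsCtr, 16.7 to 20.5 CPM in OCsEo and 16.3 to 18.1 CPM in OCsEoS and did not pass in either.

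The a, d and e positions of V0 can each be filled by more than 1 isoform, and the share of each isoform at its subunit position was computed within a library from counts per kb, which needs no scaling between libraries. Tcirg1 made up 95.92%, 96.76%, 96.73% and 96.32% of the a subunit counts in the OCsCtr libraries, 93.79%, 94.49%, 95.04% and 94.70% in OCsEo and 94.62%, 95.38%, 95.12% and 93.83% in OCsEoS. All stimulated libraries lay below all OCsCtr libraries, and the means differed from OCsCtr by -1.93 and -1.69 percentage points. Atp6v0d2 made up 75.52%, 77.26%, 77.72% and 76.29% of the d subunit counts in OCsCtr, 69.998%, 71.51%, 69.89% and 71.59% in OCsEo and 69.54%, 74.03%, 72.30% and 68.87% in OCsEoS. It too lay below OCsCtr in every stimulated library, and the means differed by -5.95 and -5.51 points. Each of these 4 differences gave p = 0.0286 in an exact two-sided permutation test over 70 splits, the smallest p that 4 against 4 libraries allow, and 0.0643 after adjustment over the 9 tests run, which fails the correction. As that p is already the smallest possible, an adjusted p under 0.05 would have needed more of the 9 tests to reach it. The share of Atp6v0e2 among e subunits was 1.73% ± 0.193 (mean and SD of 4 libraries) for OCsCtr, 2.16% ± 0.307 after eosinophils and 2.00% ± 0.0468 after supernatant. The same exact test gave adjusted p = 0.129 and 0.103. The shares in OCsEoS and OCsEo differed by 0.23 points for Tcirg1, 0.44 for Atp6v0d2 and -0.16 for Atp6v0e2 (exact permutation test, p = 0.514, 0.8 and 0.314).

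**Figure D3:**
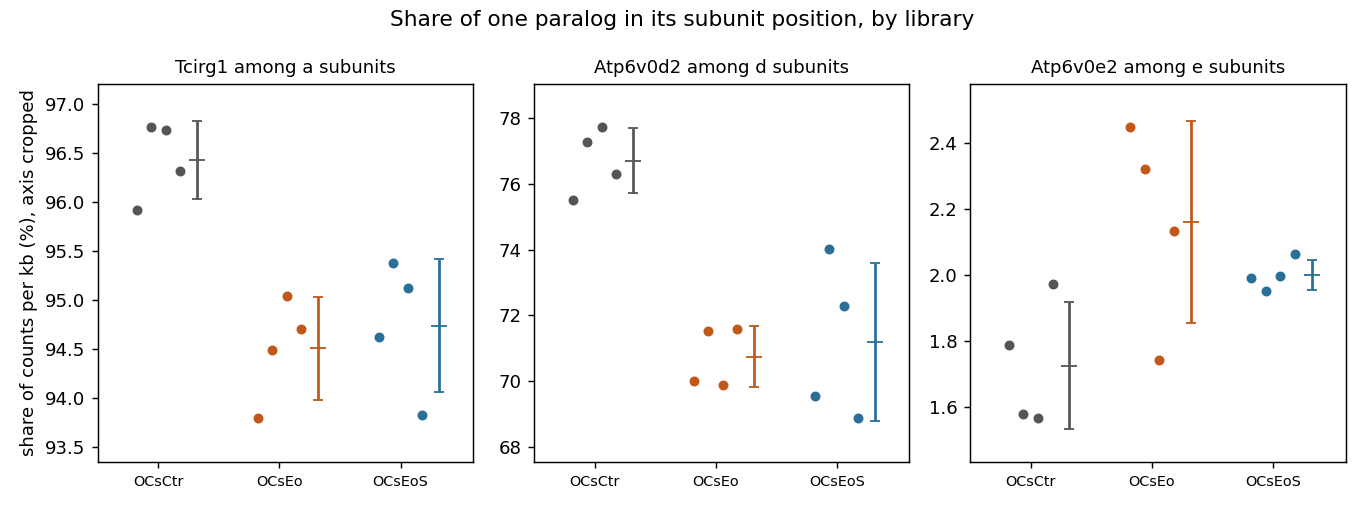
Share of Tcirg1 among the a subunits, of Atp6v0d2 among the d subunits and of Atp6v0e2 among the e subunits in each library, in percent of counts per kb, with the mean and SD of the 4 libraries beside the points; the axes are cropped. The Tcirg1 and Atp6v0d2 points of OCsEo and OCsEoS lie below all OCsCtr points, whereas the Atp6v0e2 points of the 3 groups overlap in part.

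Of the 9 V1 genes, Atp6v1a and Atp6v1d were downregulated after both stimuli, 6 fell in OCsEo and 7 in OCsEoS, and the medians were -0.37 and -0.40. Atp6v1a encodes the catalytic A subunit that hydrolyses ATP (ENSMUSG00000052459, chr16:44085402-44139705) and measured 2096, 2371, 2547 and 2505 CPM in the OCsCtr libraries, 1527, 1684, 1694 and 1794 CPM in the OCsEo libraries and 1547, 1732, 1566 and 1284 CPM in the OCsEoS libraries. The groups did not overlap with OCsCtr, and OCsEoS replicate 4 was the lowest of the 12 libraries. It fell with a log2 fold change of -0.51 (SE 0.0774, adjusted p = 1.54e-04) in OCsEo and -0.64 (SE 0.0775, adjusted p = 1.39e-05) in OCsEoS. In OCsEo the fold change came under the cut-off without OCsCtr replicate 3 (-0.47), OCsCtr replicate 4 (-0.48) or OCsEo replicate 1 (-0.47) and with the trend of counts with gene length taken out (-0.44).

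Atp6v1d, a subunit of the rotating central stalk (ENSMUSG00000021114, chr12:78842989-78861638), measured 508, 580.4, 575 and 571 CPM in the OCsCtr libraries, 349, 390.4, 433 and 406 CPM in the OCsEo libraries and 363, 426, 439.7 and 336 CPM in the OCsEoS libraries. All stimulated libraries lay below OCsCtr. Its log2 fold change of -0.50 (SE 0.0811, adjusted p = 2.59e-04) in OCsEo sat on the cut-off. The call was kept in 7 of 21 other settings and was lost without any 1 library except OCsCtr replicate 1, OCsEo replicate 3 and OCsEo replicate 4, with values over all settings from -0.59 to -0.45. In OCsEoS it was -0.51 (SE 0.0811, adjusted p = 1.43e-04) and was kept in 17 of 21, and it came under the cut-off without OCsCtr replicate 2 (-0.49), OCsCtr replicate 3 (-0.495), OCsEoS replicate 1 (-0.47) or OCsEoS replicate 4 (-0.44). The adjusted p stayed under 0.05 in each of these settings.

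Atp6v1b2, Atp6v1c1, Atp6v1e1 and Atp6v1h fell in both comparisons without reaching the cut-off, and in each of them all stimulated libraries lay below all OCsCtr libraries. Atp6v1b2, the B subunit of the ATP-binding ring, measured 4530.1, 5127, 5534 and 4929.5 CPM in the OCsCtr libraries, 3598, 3857, 4159.7 and 3976 CPM in the OCsEo libraries and 3615, 4110.2, 4032 and 3501 CPM in the OCsEoS libraries. Its log2 fold change was -0.37 (adjusted p = 5.25e-04) and -0.40 (adjusted p = 1.65e-04). Atp6v1e1, of the peripheral stalk, changed by -0.37 (adjusted p = 7.84e-04) and -0.496 (adjusted p = 3.65e-05), the latter just short of the cut-off. Atp6v1h, a subunit that couples the sectors and restrains free V1, changed by -0.44 (adjusted p = 2.36e-04) and -0.45 (adjusted p = 1.35e-04). Atp6v1c1, which links the stalks to V0 and is involved in reversible assembly, changed by -0.25 (adjusted p = 0.00551) and -0.21 (adjusted p = 0.0119), the latter with an adjusted p of 0.0662 without OCsCtr replicate 3 and 0.0594 without OCsEoS replicate 1.

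Atp6v1f, Atp6v1g1 and Atp6v1g2 did not pass in OCsEo. Atp6v1f, of the central stalk, measured 544 to 658 CPM in OCsCtr, 497 to 643 CPM in OCsEo and 473 to 548 CPM in OCsEoS and had a log2 fold change of -0.10 (adjusted p = 0.409) in OCsEo. It fell in OCsEoS (-0.23, adjusted p = 0.0355), with an adjusted p of 0.0551 to 0.138 without OCsCtr replicate 2, 3 or 4 or without OCsEoS replicate 1 or 4. Atp6v1g1, of the peripheral stalk, had a log2 fold change of -0.11 (adjusted p = 0.312) in OCsEo and -0.19 (adjusted p = 0.055) in OCsEoS, and 19.2% of its 50-base stretches also occur in other annotated genes, mainly Gm13453 and Gm12344. Its value is uncertain to that extent, as is that of Atp6v1f, with 11.2% shared. Atp6v1g2, the neuronal G isoform, measured 0.901, 0.386, 0.471 and 0.28 CPM in the OCsCtr libraries, 0.478, 0.611, 0.436 and 0.693 CPM in the OCsEo libraries and 0.427, 1.51, 0.445 and 0.729 CPM in the OCsEoS libraries. Its intervals of -1.17 to 1.42 and -0.68 to 1.90 on the log2 scale were too wide to show a change, and part of its exons overlaps Nfkbil1 on the opposite strand, with 5106 counts over the 12 libraries beside 244 for Atp6v1g2.

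Both accessory proteins of the pump fell after both stimuli, short of the cut-off. Atp6ap1, also known as Ac45, which helps assemble V0 and guide the pump, measured 783, 904, 940.4 and 911 CPM in the OCsCtr libraries, 653, 741, 759.6 and 775 CPM in the OCsEo libraries and 636, 699.7, 651 and 574 CPM in the OCsEoS libraries. Neither stimulated group reached OCsCtr, and the OCsEo and OCsEoS ranges overlapped each other. Its log2 fold change was -0.27 (SE 0.0699, adjusted p = 0.00967) in OCsEo and -0.47 (SE 0.07, adjusted p = 9.45e-05) in OCsEoS. Atp6ap2, the prorenin receptor, measured 833 to 969 CPM in OCsCtr, 641 to 789 CPM in OCsEo and 627 to 747 CPM in OCsEoS and changed by -0.32 (adjusted p = 0.00311) and -0.40 (adjusted p = 3.68e-04).

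Of the 4 chloride exchangers and Ostm1, 3 fell in OCsEo and 2 in OCsEoS, with medians of -0.34 and -0.22. Clcn7, the lysosomal and ruffled border chloride proton exchanger (ENSMUSG00000036636, chr17:25133391-25162104), was downregulated after both stimuli in every setting tried. It measured 402, 456, 489 and 462 CPM in the OCsCtr libraries, 242, 305, 273 and 321 CPM in the OCsEo libraries and 264, 309, 302 and 237 CPM in the OCsEoS libraries. The highest stimulated library, OCsEo replicate 4, lay well below the lowest OCsCtr library. The log2 fold change was -0.67 (SE 0.0899, adjusted p = 4.82e-05) in OCsEo and -0.70 (SE 0.09, adjusted p = 2.27e-05) in OCsEoS, a change of -37% and -38.5%. Ostm1, the beta subunit that Clcn7 needs for stability, fell as well, with non-overlapping groups (131 to 147 CPM in OCsCtr, 101 to 118 CPM in OCsEo and 90.9 to 111 CPM in OCsEoS). The fold change on the log2 scale was -0.34 (adjusted p = 0.00364) and -0.48 (adjusted p = 1.39e-04), and the OCsEo adjusted p became 0.0548 with the length trend taken out.

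The endosomal exchangers Clcn3, Clcn5 and Clcn6 were far lower per kb than Clcn7. Clcn3 measured 32.7, 35.9, 35.2 and 32.2 CPM in the OCsCtr libraries, 26.3, 29.8, 23.5 and 28.1 CPM in the OCsEo libraries and 26.4, 35.8, 31.7 and 27.6 CPM in the OCsEoS libraries. Its OCsEo libraries all lay below OCsCtr, with a log2 fold change of -0.34 (adjusted p = 0.0293), which passed in 16 of 21 other settings. The adjusted p was 0.0671 to 0.0969 without OCsCtr replicate 2 or 3 or without OCsEo replicate 1 or 3. With the length trend taken out it was -0.15 (adjusted p = 0.356), and Clcn3 is the longest of the members in the table. In OCsEoS it was -0.16 (adjusted p = 0.296). Clcn5 and Clcn6 passed in neither comparison, with 95% intervals of -0.32 to 0.15 and -0.45 to 0.01 for Clcn5 and of -0.59 to 0.31 and -0.28 to 0.61 for Clcn6.

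Slc4a2, the chloride bicarbonate exchanger of the side facing away from bone (ENSMUSG00000028962, chr5:24423837-24440950), was downregulated after both stimuli. It measured 466, 462, 472 and 464 CPM in the OCsCtr libraries, 262, 321, 271 and 315 CPM in the OCsEo libraries and 298, 347, 330.01 and 302 CPM in the OCsEoS libraries. The OCsCtr libraries were close to each other, and the highest stimulated library, OCsEoS replicate 2, lay far below them. The log2 fold change was -0.67 (SE 0.0686, adjusted p = 1.92e-06) in OCsEo and -0.55 (SE 0.0685, adjusted p = 1.92e-05) in OCsEoS, and the latter became -0.42 with the length trend taken out. Its exons share 1141 bases (13.7%) with Fastk on the opposite strand, which had 49762 counts over the 12 libraries beside 142262 for Slc4a2. The sources do not state whether reads were counted by strand, so some Slc4a2 counts may be reads of Fastk.

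Slc9b2, a sodium proton exchanger that RANKL strongly induces (ENSMUSG00000037994, chr3:135307700-135345387), measured 1624, 1943, 1971 and 1849.6 CPM in the OCsCtr libraries, 1062, 1193, 1341 and 1345 CPM in the OCsEo libraries and 1263, 1494, 1480.4 and 1085 CPM in the OCsEoS libraries. No stimulated library reached the OCsCtr range. Its log2 fold change of -0.58 (SE 0.0922, adjusted p = 2.18e-04) in OCsEo was called and that of -0.47 (SE 0.0921, adjusted p = 8.91e-04) in OCsEoS was under the cut-off. The difference between these was 0.11 (edgeR, adjusted p = 0.71), so that Slc9b2 was not shown to respond differently to the stimuli. Slc9a9, an endosomal sodium proton exchanger, measured 0.52, 0.119, 2.77 and 0.622 CPM in the OCsCtr libraries, 0.448, 0.425, 1.56 and 0.831 CPM in the OCsEo libraries and 0.89, 0.318, 2.88 and 0.7 CPM in the OCsEoS libraries. Replicate 3 was the highest and replicate 2 the lowest in each group. The intervals of -1.90 to 1.30 and -1.34 to 1.83, from the fit without pairing, were too wide to show a change, given the spread between replicates.

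Car2, which encodes carbonic anhydrase II, measured 192, 247, 269.6 and 233 CPM in the OCsCtr libraries, 186, 181, 196 and 199 CPM in the OCsEo libraries and 157, 199, 210.4 and 182 CPM in the OCsEoS libraries. OCsCtr replicate 1 lay inside the range of both stimulated groups, so the groups overlapped. It fell with a log2 fold change of -0.31 (SE 0.0919, adjusted p = 0.025) and -0.33 (SE 0.0919, adjusted p = 0.0126), and passed in 17 and 19 of 21 other settings. In OCsEo the adjusted p was 0.0596 to 0.118 without OCsCtr replicate 2 or 3 or without OCsEo replicate 1 or 2, and in OCsEoS it was 0.0674 without OCsCtr replicate 3 and 0.0634 without OCsEoS replicate 1.

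All 3 vesicle factors fell after both stimuli, and 2 of them were downregulated in each comparison. Snx10, a sorting nexin of endosomes that is needed for the ruffled border (ENSMUSG00000038301, chr6:51523901-51590679), measured 895, 1003, 1043 and 975 CPM in the OCsCtr libraries, 539.8, 617, 631 and 655 CPM in the OCsEo libraries and 564, 693, 665 and 481 CPM in the OCsEoS libraries. The highest stimulated library, OCsEoS replicate 2, lay well below the lowest OCsCtr library. The log2 fold change was -0.68 (SE 0.0898, adjusted p = 3.88e-05) in OCsEo and -0.70 (SE 0.0898, adjusted p = 2.26e-05) in OCsEoS, and both calls held in all other settings.

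Plekhm1, the adaptor that tethers Rab7-positive late endosomes for fusion (ENSMUSG00000034247, chr11:103364275-103412687), measured 139.9, 152, 148 and 148 CPM in the OCsCtr libraries, 92.6, 99.8, 95.1 and 98 CPM in the OCsEo libraries and 96.8, 107, 100.4 and 91.5 CPM in the OCsEoS libraries. Its replicates were close and the groups far apart. It changed by -0.61 (SE 0.0623, adjusted p = 1.93e-06) and -0.57 (SE 0.0622, adjusted p = 5.58e-06), and the OCsEoS value came just under the cut-off with the length trend taken out (-0.495). Rab7, the GTPase it binds, fell as well, with non-overlapping groups (473 to 509.6 CPM in OCsCtr, 411 to 429 CPM in OCsEo and 386 to 424 CPM in OCsEoS) and, on the log2 scale, changes of -0.23 (adjusted p = 0.00391) and -0.27 (adjusted p = 7.21e-04). Of the 50-base stretches of Rab7, 12.7% also occur in other genes, mainly the copy Rab7-ps1.

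**Figure D4:**
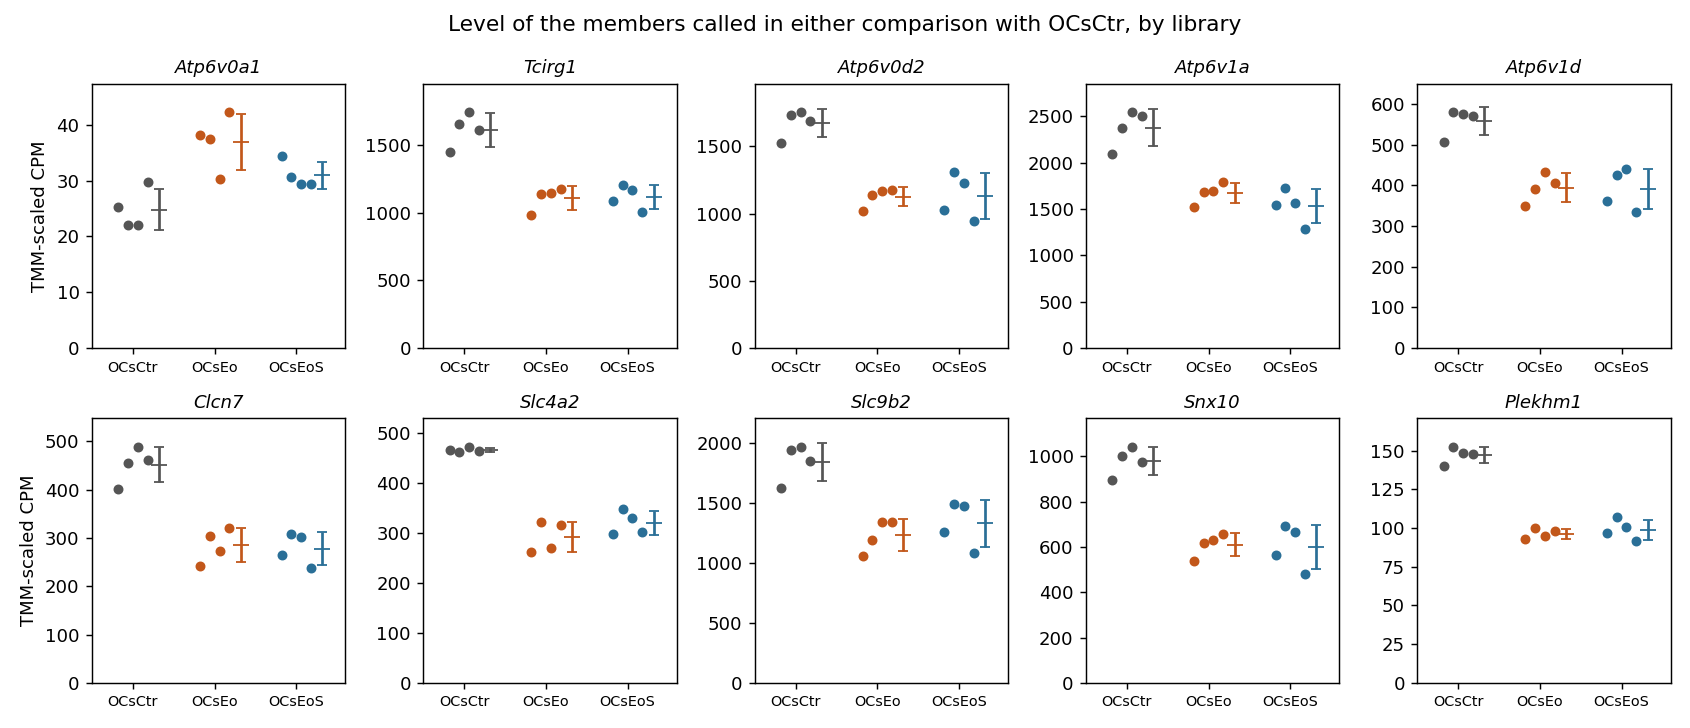
TMM-scaled CPM in each library of the 10 members called in either comparison with OCsCtr, with the mean and SD of the 4 libraries beside the points and all axes starting at 0. In the 9 genes called lower, every OCsEo and OCsEoS point lies below every OCsCtr point, and in Atp6v0a1 every OCsEo point lies above.

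OCsEoS and OCsEo were then compared directly. No member was called by edgeR (0 of 32, beside 0.307% of all genes called lower and 0.0731% called higher) or by DESeq2, and 2 members had an unadjusted p under 0.05. These were Atp6ap1, with -0.19 (SE 0.0699, unadjusted p = 0.0119, adjusted p = 0.272), and Atp6v0a1, with -0.26 (SE 0.114, unadjusted p = 0.0361, adjusted p = 0.412), both lower in OCsEoS. At an adjusted p under 0.05 alone edgeR called 0 members either (background 0.497% lower and 0.095% higher), and 0 members had non-overlapping groups (background 3.06% and 2.41%). Of the 32 members, 21 were below 0 (background 49.7%), with a median log2 fold change of -0.03 and a range of -0.26 to 0.55. The intervals set a limit on the difference for the members called in both comparisons with OCsCtr, for example -0.14 to 0.15 for Tcirg1, -0.22 to 0.15 for Clcn7 and -0.21 to 0.16 for Snx10. Differences inside these intervals were not detectable with 4 libraries a group.

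Other genes around the pump were followed as lists, also chosen with earlier results of these data known. Counts of downregulated genes are to be read against the 2.61% and 4.11% of all genes called lower in OCsEo and OCsEoS. Counts at an adjusted p under 0.05 alone are to be read against other shares. These are 8.35% and 11.2% for genes that fell and 9.06% and 11.8% for genes that rose. The 6 further V-ATPase isoforms (Atp6v0a4, Atp6v1b1, Atp6v1c2, Atp6v1e2, Atp6v1g3 and Atp6ap1l) were too low to be tested. Of 12 genes of V-ATPase assembly and regulation, 2 were downregulated in OCsEo and 5 in OCsEoS, with medians of -0.16 and -0.18, and at an adjusted p under 0.05 alone 5 and 6 fell and 1 rose in each. Dmxl1, of the RAVE-like complex that joins V1 to V0, measured 83.4 to 94.7 CPM in OCsCtr, 46.7 to 65.4 CPM in OCsEo and 47 to 62.9 CPM in OCsEoS, and changed by -0.70 (adjusted p = 9.60e-05) and -0.77 (adjusted p = 2.82e-05). The most changed of the others downregulated in OCsEoS were Tbc1d24 (-0.72, also downregulated in OCsEo with -0.53), Dmxl2 (-0.69), and Oxr1 (-0.65), of which Dmxl2 is a paralog of Dmxl1. Of 16 tested genes of other acid and base transport (23 listed), Hvcn1, a proton channel, was upregulated in OCsEo (0.57, adjusted p = 0.0483) and Slc9a7 downregulated in OCsEoS (-0.64, adjusted p = 0.00229), with medians of -0.12 and -0.10. That is 1 called gene in each comparison, near the shares of 3.27% (higher, OCsEo) and 4.11% (lower, OCsEoS) over all genes, and at an adjusted p under 0.05 alone 2 fell and 1 rose in OCsEo and 2 fell and 2 rose in OCsEoS. Of 27 tested genes of lysosome positioning and traffic (28 listed), Rab38 (-0.75 and -0.62) and Vps39 (-0.67 and -0.63) were downregulated in both, 6 fell in OCsEo and 8 in OCsEoS at an adjusted p under 0.05 alone, and the medians were -0.07 and -0.03. Rab38 acts in lysosome related organelles, and Vps39 belongs to the HOPS complex that Plekhm1 recruits.

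Markers of other cells were measured beside these results. The summed level of 8 macrophage or monocyte genes was 2317 to 2648 CPM in OCsCtr, 2131 to 2480 CPM in OCsEo and 1926 to 2307 CPM in OCsEoS, and most of this was Csf1r and Cd68. Cd14 was upregulated in OCsEo and, in OCsEoS, Adgre1, Mrc1 and Cd14 were upregulated and Csf1r downregulated. At an adjusted p under 0.05 alone, 1 of the 8 fell (Csf1r) and 2 rose (Adgre1 and Cd14) in OCsEo (background 8.35% and 9.06%). In OCsEoS 2 fell and 4 rose (background 11.2% and 11.8%). The median log2 fold changes of the 8 genes were 0.12 and 0.35. The 10 eosinophil genes summed to 57.1 to 73.7, 60.1 to 82.2 and 49.3 to 55.5 CPM. Most of this was Ccr3 (51.3 to 65.6 CPM in OCsCtr, 45.7 to 53.2 CPM in OCsEo and 47.3 to 53 CPM in OCsEoS). Only 5 of the 10 could be tested. In OCsEo 2 of them were called higher (background 3.27%), and 1 fell and 2 rose at an adjusted p under 0.05 alone (background 8.35% and 9.06%). In OCsEoS 1 was called lower (background 4.11%), and 2 fell and 0 rose (background 11.2% and 11.8%). Alox15 (0.104 to 0.653 CPM in OCsCtr, 6.24 to 16.7 CPM in OCsEo and 0.178 to 1.13 CPM in OCsEoS) and Siglecf (0.218 to 0.653 CPM in OCsCtr, 2.53 to 3.28 CPM in OCsEo and 0.237 to 1.3 CPM in OCsEoS) were upregulated in OCsEo, Prg2 was downregulated in OCsEoS, and 4 of the 10 genes (Epx, Ear1, Ear6 and Prg3) were at 0 in all OCsEoS libraries. Those 4 genes were near the detection limit in the other groups too, with means of 0.0664 to 0.305 CPM in OCsCtr and 0.203 to 0.369 CPM in OCsEo. Their zeros therefore do not show a fall. The 11 neutrophil genes summed to 354 to 502, 513 to 681 and 400 to 465 CPM, with Elane and Camp upregulated in OCsEo (background 3.27%). In OCsEo 4 rose at an adjusted p under 0.05 alone (background 9.06%) and 0 were below 0 (background 50.9%), whereas in OCsEoS 0 passed. Their medians were 0.42 and -0.21. In OCsEoS against OCsEo, 3 were called lower (background 0.307%) and 9 had non-overlapping, lower groups (background 3.06%). T cell (0.442 to 0.95, 1.117 to 2.28 and 0.292 to 2.11 CPM), B cell (7.01 to 20.3, 17.9 to 20.4 and 11.8 to 19.9 CPM), basophil or mast cell (0.386 to 1.1195, 0.82 to 1.41 and 0.408 to 0.783 CPM) and fibroblast or osteoblast genes (12.98 to 62.7, 11.4 to 43.1 and 11.9 to 38.6 CPM) were low, and of these 1 fibroblast or osteoblast gene, Runx2, was downregulated in OCsEoS. The part of these cells in the member levels was not tested.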

How the data were processed

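RNA-seq libraries were aligned by the authors with HISAT2 2.0.5 to GRCm38/mm10 and reads were counted per gene with featureCounts. The submitters' processing notes also name fastp, per the labels. The annotation release and the strand setting of the counting are not given in the sources used here. The deposited table holds raw counts for 47643 genes in 12 libraries, with 27440 genes at 0 in every library and 118 symbols that occur more than once. Members were found by gene symbol, and they and all gene lists were chosen with earlier results of these data known. Genes passing filterByExpr (minimum count 10) were kept, scaled by TMM and fitted with all 12 libraries and 3 groups in edgeR 4.0.16 (R 4.3.3, limma 3.58.1). Levels per kb used the gene length in the table. DESeq2 1.42.0, other scalings, other filters, no threshold on the fold change, a gene length offset, a replicate block and leaving out each library were run as alternatives. Isoform shares were compared with exact two-sided permutation tests. Outside the members, up to 4 called genes per list were named by absolute log2 fold change, with defining markers that moved. The counting limit of 3 counts covers counting error only. The deviations of libraries with the same number in different groups correlated weakly (12 pairs, r from -0.0435 to 0.0944), with 0 pairs over the 0.1 set for pairing. No pairing was therefore used in the main fit, although 9 of 12 libraries correlated best with a library of their own number. Promoters came from RefSeq (GRCm38.p6), and overlaps and shared 50-base stretches from GENCODE vM21 of the same build.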

Additional observations from a re-analysis of the deposited data

Results flagged for a closer look

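In 5 of 105 groups of 4 libraries tested over the members, 1 library lay further from the others than Dixon's critical value allows, and chance gives about 1 in 20 such groups. Tcirg1 was at 980.4 CPM in OCsEo replicate 1, beside 1140.5 to 1170.1 CPM in the other OCsEo libraries, and its OCsEo log2 fold change without that library was -0.49. Atp6v1d was at 508 CPM in OCsCtr replicate 1, beside 571 to 580.4 CPM in the other controls. Atp6v0c was at 36.3 CPM in OCsCtr replicate 2, beside 29.5 to 30.3 CPM. Atp6v0e2 was at 19.6 CPM in OCsCtr replicate 4, beside 16.4 to 16.9 CPM. Rab7 was at 411 CPM in OCsEo replicate 4, beside 428 to 429 CPM.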

How the results depend on the processing

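With no threshold on the fold change, 20 members were called lower in OCsEo, and 21 lower and 1 higher in OCsEoS. With the length trend taken out, 5 members were called lower in OCsEoS. Leaving out single libraries gave 6 to 9 members called lower in OCsEo and 5 to 13 in OCsEoS (13 without OCsCtr replicate 1, 5 without OCsEoS replicate 4), and an OCsEoS median of -0.40 to -0.25 (-0.40 without OCsEoS replicate 3). For the Atp6v0d2 share such fits gave -6.34 to -5.61 points in OCsEo, -6.46 to -4.74 in OCsEoS and -0.51 to 1.21 for OCsEoS against OCsEo (-0.51 without OCsEoS replicate 2). For the Tcirg1 share they gave -2.10 to -1.69, -1.91 to -1.39 and -0.0045 to 0.54 (-0.0045 without OCsEo replicate 1), and for the Atp6v0e2 share 0.34 to 0.58, 0.22 to 0.36 and -0.30 to -0.066. The exact permutation test of shares reached an adjusted p of 0.0429 for some shares without OCsCtr replicate 4 or OCsEo replicate 3. Those settings left out the comparison that lacked the reduced group and so adjusted over fewer than the 9 tests of the main run. The value therefore cannot be set against the 0.0643 of the main run and does not show that a share passed.

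Of the values that did not pass the test, some changed sign in some settings. Slc9a9 in OCsEo was 0.20 with the replicate block and -0.83 to 0.97 with single libraries left out, and -0.66 to 1.51 in OCsEoS. Such fits gave -0.045 to 0.055 for Atp6v0b in OCsEo and -0.083 to 0.0081 in OCsEoS, -0.077 to 0.54 for Atp6v1g2 in OCsEo and -0.054 to 0.043 for Atp6v0e2 in OCsEoS. With the length trend taken out, Atp6v0b was -0.055 and Clcn5 0.051 in OCsEo, and Atp6v0a2 was 0.021 and Clcn3 0.071 in OCsEoS. The cause of these changes was not tested.

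The replicate block, with the shared number treated as a pairing, gave 9 members lower and 1 higher in OCsEo and 8 lower in OCsEoS, with medians of -0.28 and -0.30, and 9 of 12 libraries correlated best with their own number, a hint from the data and not from the design. DESeq2 gave 8 members lower in each comparison. Slc9a9 and Atp6v1g2 had the lowest levels per kb and wide spreads between replicates, and with 4 libraries a group the exact tests of isoform shares cannot give an unadjusted p under 0.0286.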
